A study of Rattus norvegicus with 6 samples.

Results

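The 7 host genes described here each gave rise to between 6 and 9 circular RNAs (circRNAs) in the rat pineal gland. They were chosen by a measured value, the number of circRNAs in the main deposited tables, from 1052 host genes, of which 310 had 2 or more circRNAs. Together they held 52 of the 2228 circRNAs listed. By Ensembl identifier they were ENSRNOG00000020689 with 9 circRNAs, ENSRNOG00000014139, ENSRNOG00000011697 and ENSRNOG00000023274 with 8 each, ENSRNOG00000011914 with 7, and ENSRNOG00000017116 and ENSRNOG00000026942 with 6 each. Another 3 hosts also had 6 to 9 circRNAs and are not described. Just outside that range were 10 hosts with 5 circRNAs, 1 host with 10 and 1 host with 11. The files give no gene symbols, and none of the 7 identifiers was found in the RefSeq table used, so function is not described and no gene sequence is shown.

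The pineal gland releases melatonin at night. Total RNA came from the glands of 6 rats, all 8 weeks old, with 1 library per rat, and the labels name no genotype, strain or drug treatment. The labels conflict on the groups. By sample title and time tag, C01–C03 are night rats (4 h) and C04–C06 are day rats (16 h). The protocol text instead gives C01–C03 as killed in light between 16 h and 17 h, and C04–C06 as killed in the dark, under red light, between 4 h and 5 h. Rat numbers therefore name the groups, every difference is C01–C03 minus C04–C06, and nothing is said of day or night. The tissue label could not be checked against marker genes, because the files hold circRNAs under identifiers without names.

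A circRNA forms when a splice donor is joined to an acceptor upstream of it in the same transcript, which closes the RNA between them into a ring. One gene can form several rings by joining different donors and acceptors, and rings of the same gene often share an end. Because they have no free ends, circRNAs resist exonucleases and can persist longer than the linear RNA of their gene. A read that crosses such a junction is called a back-splice read here. A read that crosses the same ends without the back-splice is called a linear read. The circular share is 2b / (2b + l), where b is the back-splice reads and l the linear reads of a circRNA in a library.

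The libraries held from 15506 to 22265 back-splice reads in the main tables. The 7 hosts held 1205 of all 116358 back-splice reads. Their reads were 185 in C01, 167 in C02, 183 in C03, 204 in C04, 265 in C05 and 201 in C06. As a share of each library that was 1.003% ± 0.108 (SD, n = 3) in C01–C03 and 1.07% ± 0.107 (SD, n = 3) in C04–C06. The shares ranged from 0.879% in C01 to 1.19% in C05, and the groups overlapped. No read name supported more than 1 of the 52 circRNAs within a library, so no read was counted under 2 of them.

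A circRNA needed 2 or more back-splice reads to be in a library's main table, and the lowest circular share of any listing was 9.09%. That limit equals 20 linear reads per back-splice read, so a circRNA can be absent from a table because its linear RNA was high. An absent entry was counted as 0 reads and is called not listed. Of 312 possible entries of the 52 circRNAs in the 6 libraries, 125 were listed, with a median of 7 reads. The exact Poisson 95% interval of 7 reads runs from 2.81 to 14.4, and it covers counting error only.

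The circRNAs of the 7 hosts were used unevenly across rats. In all, 24 circRNAs were listed in 1 library, 11 in 2, 4 in 3, 4 in 4, 3 in 5 and 6 in all 6. The share listed in 1 library was 46.2%, against 49.1% over all circRNAs, and the share listed in all 6 was 11.5%, against 12.3%. The 6 circRNAs listed everywhere were the leading circRNAs of 6 hosts, 1 in each, and held 617 reads, or 51.2% of the 1205. The 24 listed in a single library held 120 reads, 2 to 10 each, or 9.96%. ENSRNOG00000023274 was the host without a circRNA listed in all 6 libraries; none of its circRNAs was listed in more than 3.

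Many listings lay near the lower limit of the circular share. In 54 of the 125 listings, or 43.2%, the share was under 15%, against 40.2% of all 5374 listings. The median share was 16.2% over the listings of the 7 hosts and 17.8% over all listings. The circRNAs of these hosts spanned more of the genome, with a median of 29.0 kb from start to end. The median was 13.6 kb over all circRNAs and 11.7 kb over those with 1 host gene. These hosts were chosen by their number of circRNAs, and whether that choice favours long spans was not tested. The span is genomic and includes introns, and ranged from 1.418 kb to 89.634 kb in the 52. By the authors' types, 49 of the 52 were exonic and 3 intronic.

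Reuse of ends was common among the 52 circRNAs. They used 30 starts and 28 ends, and 48 of the 52, or 92.3%, shared a start or an end with another circRNA of their host. In the other hosts with 2 or more circRNAs the share was 555 of 769, or 72.2%. A host with more circRNAs has more chances to share an end, and these hosts were chosen by that number, so the 2 shares are a description. On the minus strand, which holds 5 of the hosts, the start by coordinate is the donor and the end is the acceptor. On the plus strand, which holds 2 hosts, it is the reverse. Within the hosts, 88 pairs of a listed start and a listed end downstream of it were possible, and 52 were listed.

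**Figure D1:**
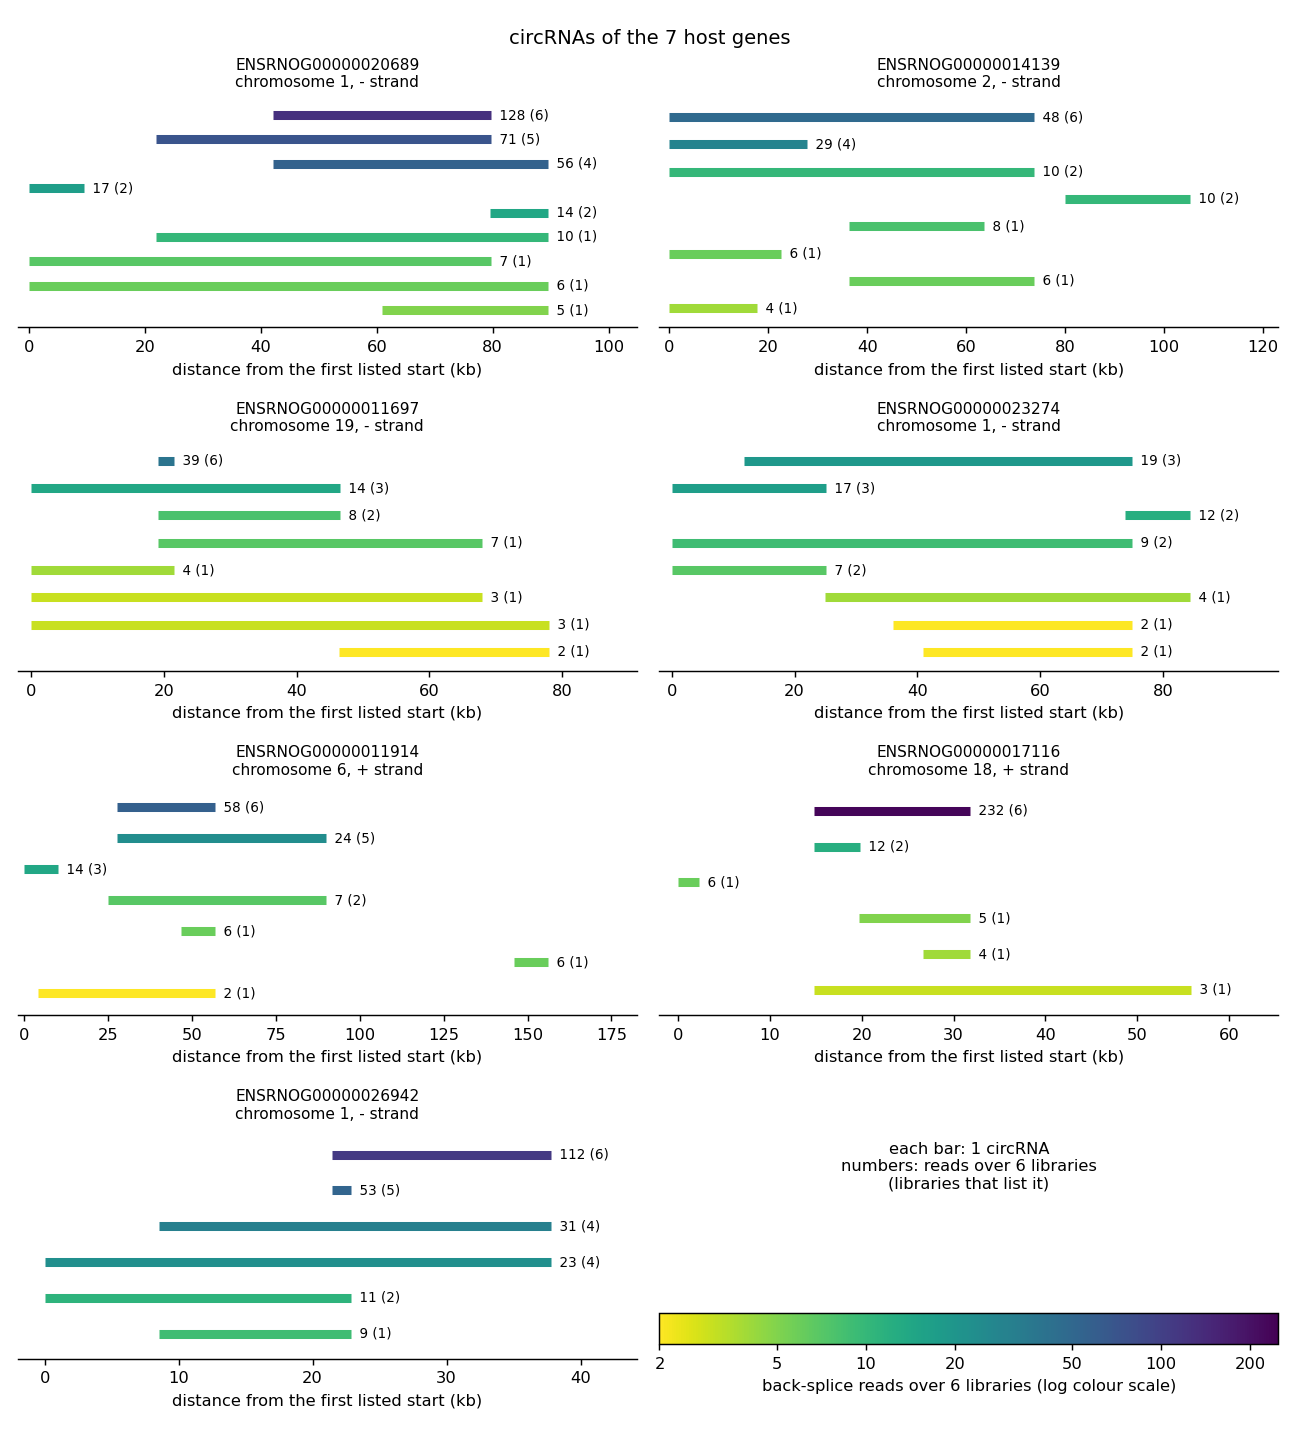
Position of each circRNA within its host gene. The horizontal axes give the distance in kb from the first listed start, each bar is 1 circRNA, the colour (log scale) gives its back-splice reads over the 6 libraries, and the numbers give those reads and, in parentheses, the libraries that list it. Bars that begin or end at the same place share an end, as 48 of the 52 do.

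ENSRNOG00000020689, on the minus strand of chromosome 1 between 255685048 and 255774681, had the most circRNAs and the most reads of the 7. Its summed back-splice reads were 60, 43, 53, 46, 60 and 52 in C01 to C06. All 9 circRNAs shared an end, and 5 starts and 3 ends made 9 of 11 possible pairs. The leading circRNA, chr1:255727112-255764689, had 19, 25, 21, 16, 19 and 28 reads and 40.8% of the host's reads, and it led alone in all 6 libraries. The next, chr1:255706980-255764689, had 11 reads in C01, none in C02, and 12, 12, 17 and 19 in C03 to C06. Both used the acceptor at 255764689, which was present in every library with 25 to 47 reads and held 65.6% of the host's reads. The donor at 255727112 held 58.6%. In C02 neither of the next 2 circRNAs by reads was listed, and the leading circRNA then held 58.1% of the host's reads.

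ENSRNOG00000014139, on the minus strand of chromosome 2 between 128562842 and 128668115, was organised around 1 donor. The donor at 128562842 took part in 5 of its 8 circRNAs and 80.2% of its reads, and 7 acceptors were listed in all. Summed reads were 20, 15, 18, 22, 24 and 22 in C01 to C06. The leading circRNA, chr2:128562842-128636642, had 7, 5, 7, 16, 7 and 6 reads. The next, chr2:128562842-128590589, had 7 reads in C01, 0 in C02, 7 in C03, 6 in C04, 9 in C05 and 0 in C06. The lead was therefore not stable: chr2:128562842-128636642 led alone in 1 library, C04, tied in 3 and was behind another circRNA in 2. The 2 closest acceptors of this host lay 62 bases apart, at 128636580 and 128636642.

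ENSRNOG00000011697, on the minus strand of chromosome 19 between 32450974 and 32528958, combined a short leading circRNA with long ones seen in few libraries. Its summed reads were 13, 10, 14, 10, 18 and 15 in C01 to C06. The leading circRNA, chr19:32470120-32472456, spans 2.337 kb and had 4, 7, 7, 7, 8 and 6 reads, or 48.8% of the host's reads. The next, chr19:32450974-32497560, spans 46.587 kb and had 9 reads in C01, 3 in C02, none in C03 to C05 and 2 in C06. In C01 it had more reads than the leading circRNA and a circular share of 41.9%. Of the 8 circRNAs, 5 were listed in 1 library each.

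ENSRNOG00000023274, on the minus strand of chromosome 1 between 128501692 and 128586111, had no circRNA listed in all 6 libraries. Its summed reads were 11, 14, 11, 4, 17 and 15 in C01 to C06. The circRNA with most reads, chr1:128513529-128576607, held 26.4% of them, and its reads were 0, 4, 6, 0, 0 and 9. The next, chr1:128501692-128526760, had 6 reads in C01, 5 in C03, 6 in C05 and none in the others. These 2 circRNAs were listed together only in C03, and neither was listed in C04, where the host had 1 circRNA with 4 reads. Listing understates some of its circRNAs. The main tables listed chr1:128501692-128526855 in C05 and C06 alone. A second deposited list, from another caller, gave it 2, 3, 3, 0, 3 and 4 reads in C01 to C06. The acceptor at 128576607 joined 4 donors and was used in 5 libraries. Of the 3 intronic circRNAs, 2 belong to this host, each with 2 reads in 1 library.

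ENSRNOG00000011914, on the plus strand of chromosome 6 between 27994818 and 28150843, covered the longest stretch, 156 kb. Its summed reads were 20, 16, 19, 24, 22 and 16 in C01 to C06. The leading circRNA, chr6:28022406-28051704, had 9, 9, 7, 7, 15 and 11 reads, or 49.6% of the host's reads, and led alone in every library. The next, chr6:28022406-28084649, had 3, 4, 4, 6, 7 and 0 reads. They share the acceptor at 28022406, which held 70.1% of the host's reads. Of 18 possible pairs, 7 were listed, the lowest proportion of the 7 hosts at 38.9%.

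ENSRNOG00000017116, on the plus strand of chromosome 18 between 61308852 and 61364719, was dominated by 1 circRNA. Its summed reads were 41, 31, 32, 51, 59 and 48 in C01 to C06. The leading circRNA, chr18:61323689-61340634, had 41, 31, 28, 41, 43 and 48 of those reads, or 88.5%. It was the only circRNA of the host listed in C01, C02 and C06. The second caller nevertheless gave chr18:61328528-61340634, which the main tables listed in C04 alone, 3, 3, 2, 3, 2 and 2 reads in C01 to C06. The next, chr18:61323689-61328704, had 5 reads in C04 and 7 in C05 and was not listed elsewhere. The acceptor at 61323689 held 94.3% of the host's reads and the donor at 61340634 held 92.0%.

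ENSRNOG00000026942, on the minus strand of chromosome 1 between 247922780 and 247960553, was the host in which every possible pair was listed. Its 3 donors and 2 acceptors made all 6 pairs. Summed reads were 20, 38, 36, 47, 65 and 33 in C01 to C06. The leading circRNA, chr1:247944245-247960553, had 20, 15, 18, 17, 30 and 12 reads, or 46.9% of the host's reads. The next, chr1:247944245-247945662, had 0, 15, 8, 10, 12 and 8 reads and spans 1.418 kb. C01 stood apart, because the main table listed 1 circRNA of this host there against 3 to 5 in the other libraries. The second caller gave reads in C01 for 4 of the 5 circRNAs not listed there, with 2, 3, 4 and 5 reads.

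**Figure D2:**
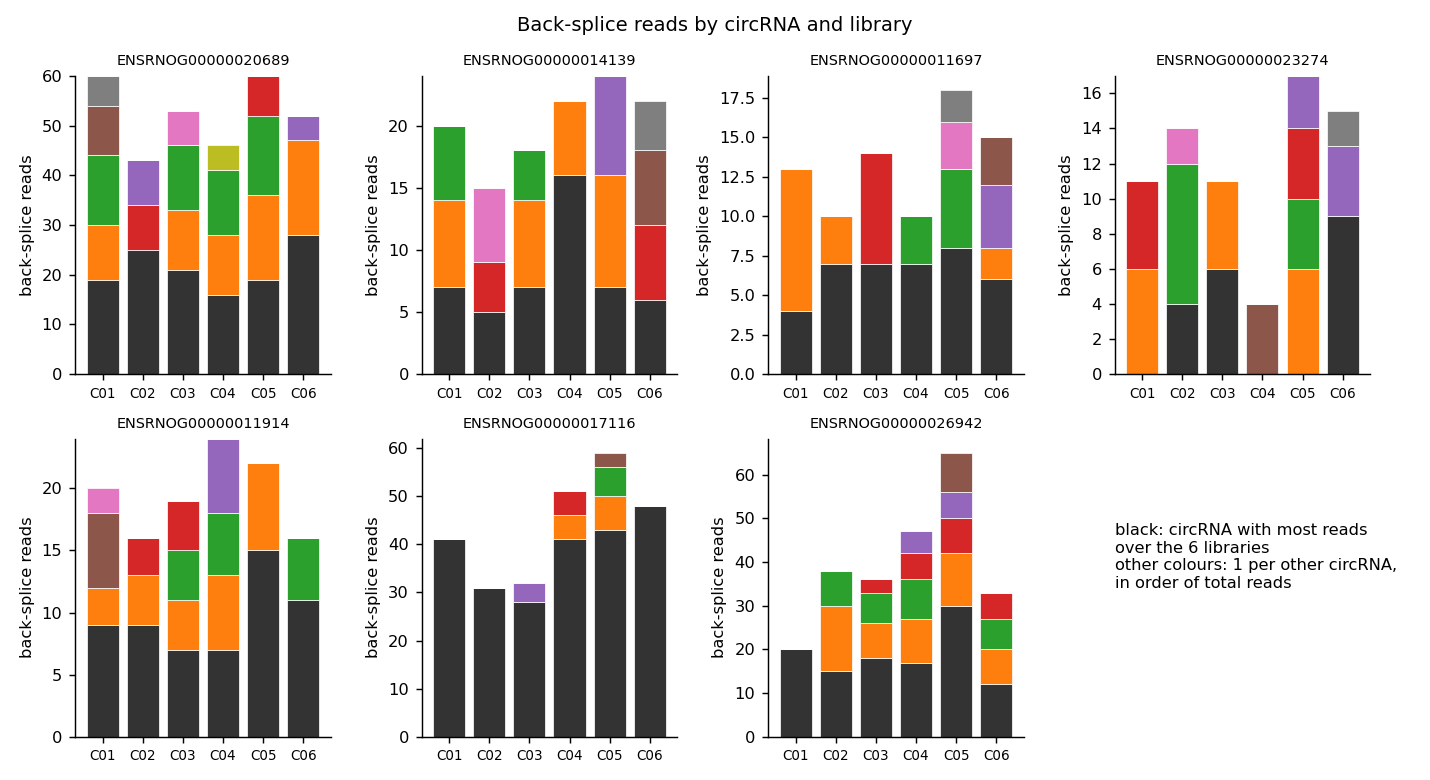
Back-splice reads (vertical axes) of each host in libraries C01 to C06, stacked by circRNA, with the circRNA of most reads over the 6 libraries in black and the others in colour. The black part makes up 88.5% of the reads of ENSRNOG00000017116 and is missing in 3 libraries of ENSRNOG00000023274.

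By the leading circRNA's part of a host's reads over the 6 libraries they ran from 88.5% in ENSRNOG00000017116 through 49.6% in ENSRNOG00000011914, 48.8% in ENSRNOG00000011697, 46.9% in ENSRNOG00000026942, 40.8% in ENSRNOG00000020689 and 39.7% in ENSRNOG00000014139 to 26.4% in ENSRNOG00000023274. The middle 5 lie close together, and their per-library values overlapped. In ENSRNOG00000026942, for example, the leading circRNA held 36.2% to 50% of the reads in C02 to C06 and 100% in C01.

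That leading part did not separate the groups in any host by the exact two-sided permutation test, which with 3 rats against 3 cannot give a p below 0.1. The largest difference was in ENSRNOG00000026942, with 63.2% ± 32.3 (SD, n = 3) in C01–C03 and 39.6% ± 5.71 (SD, n = 3) in C04–C06 (exact permutation p = 0.2). It rests on C01. Without that library the C01–C03 mean was 44.7%, and the difference fell from 23.6 to 5.17 percentage points. ENSRNOG00000017116 had 95.8% ± 7.22 and 84.4% ± 14 (exact permutation p = 0.4), with 100% in C06 as well as in C01 and C02. By the second caller's reads its means were 83.1% ± 4.09 and 84.5% ± 10.3 (SD, n = 3). In the other hosts the exact permutation p lay between 0.6 and 1.

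Expressed as counts per 1000000 back-splice reads of the library (CPM), ENSRNOG00000017116 was lower in C01–C03, with 1949, 1999 and 1842 CPM, than in C04–C06, with 2466, 2650 and 2461 CPM. The means were 1930 ± 80.0 and 2526 ± 107 (SD, n = 3), and the groups did not overlap. The leading circRNA alone had 41, 31 and 28 reads in C01–C03 and 41, 43 and 48 in C04–C06. Scaled to each library's back-splice reads, the leading circRNA alone overlapped between the groups. The other reads in C04 and C05 came from circRNAs with circular shares of 9.09% to 14.9%, near the lower limit. Second-caller reads of the host's listed circRNAs were 37, 35 and 27 against 21, 57 and 34, and overlapped. In edgeR's quasi-likelihood test the host's log2 difference was -0.43 (SE 0.17), with an unadjusted p of 0.0404. The Benjamini-Hochberg adjusted p of that test was 0.455 over 473 hosts, so the host did not pass the threshold of 0.05. Over 13 alternative settings the log2 difference stayed between -0.46 and -0.21, and the smallest adjusted p was 0.265. The rats are separate animals, so these p-values measure the spread between rats. In whole glands, fewer cells of a type and less RNA per cell cannot be told apart.

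ENSRNOG00000020689 lay higher in C01–C03, with 2892 ± 144 CPM against 2529 ± 264, without overlap. Its log2 difference was 0.14 (SE 0.16). ENSRNOG00000014139 lay lower, with 985 ± 45.4 CPM against 1090 ± 33.8, also without overlap, and a log2 difference of -0.20 (SE 0.34). In both cases the gap between the groups was small: 2773 CPM in C02 was the lowest of the first 3 rats and 2695 CPM in C05 the highest of the others for ENSRNOG00000020689. No overlap was seen in 3 of the 7 hosts, against 18.8% of all hosts tested. With 7 hosts, that count was not tested.

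The other 4 hosts overlapped between the groups. ENSRNOG00000026942 had 1825 ± 780 CPM in C01–C03 and 2295 ± 614 in C04–C06, with a log2 difference of -0.41 (SE 0.36), and C01 was lowest at 951 CPM. ENSRNOG00000011914 had 1026 ± 71.9 and 990 ± 170 CPM, and ENSRNOG00000011697 had 690 ± 102 and 687 ± 177 CPM. Their log2 differences of -0.00 (SE 0.36) and -0.05 (SE 0.50) changed sign with the normalization. ENSRNOG00000023274 had 686 ± 195 and 575 ± 331 CPM and a log2 difference of 0.19 (SE 0.68). Its 193 CPM in C04 was 4.67-fold below its highest value, in C02, the widest range of the 7 hosts.

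None of the 7 hosts passed the adjusted threshold, against 1.06% of the hosts tested (5 of 473). At an unadjusted p under 0.05 there was 1 of the 7, against 9.51% of all hosts tested (45 of 473). DESeq2, limma-voom and the second caller's counts also called 0 of the 7, against 4.32% (20 of 463), 5.5% (26 of 473) and 0% (0 of 548) of the hosts with an adjusted p in each. The second caller's counts covered only circRNAs in the main tables. In edgeR's test the median log2 difference of the 7 was -0.05, beside -0.11 over all hosts tested. Scaling by library size alone moved the median over all hosts by 0.11.

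**Figure D3:**
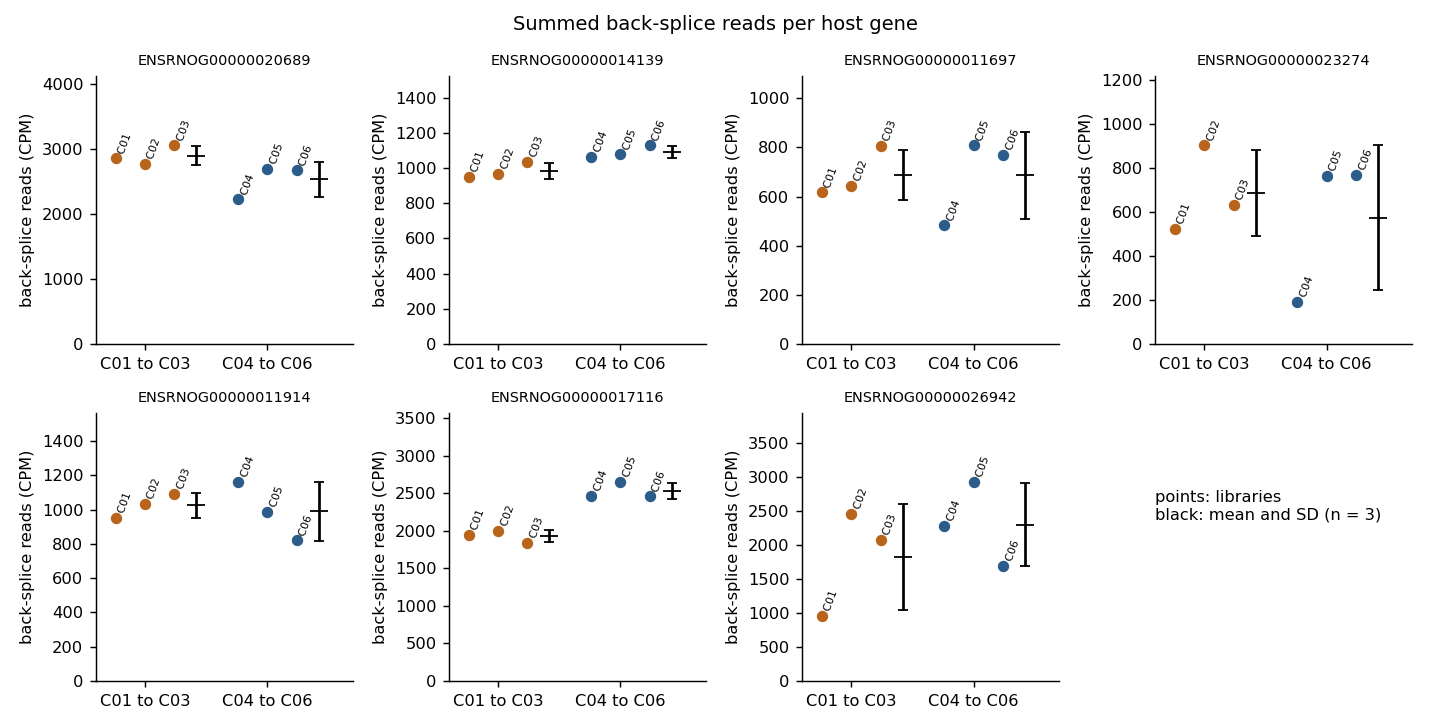
Summed back-splice counts per 1000000 back-splice reads of the library (CPM, vertical axes from 0) for each host, with 1 point per library and the mean and SD (n = 3) in black. The groups do not overlap in ENSRNOG00000020689, ENSRNOG00000014139 and ENSRNOG00000017116, and C01 is the lowest point of ENSRNOG00000026942 at 951 CPM.

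For single circRNAs, 17 of the 52 passed the filter of at least 2 reads in at least 3 libraries, and they held 80.3% of the reads of the 7 hosts. The other 35 were not tested. None of the 17 was called by edgeR's quasi-likelihood test, against 1.55% of all circRNAs tested (12 of 772), and none had an unadjusted p under 0.05, against 9.97% of all (77 of 772). DESeq2 called 0 of the 16 to which it gave an adjusted p, against 3.96% of all such circRNAs (27 of 682). Limma-voom called 0 of the 17, against 4.27% (33 of 772), and the second caller's counts 0 of 19, against 0.116% (1 of 863). The log2 differences ran from -2.46 (SE 1.49) for chr1:247922780-247960553 of ENSRNOG00000026942 to 2.39 (SE 1.83) for chr19:32450974-32497560 of ENSRNOG00000011697. Reads of the first were 0, 0, 3, 6, 8 and 6, and both extremes rest on libraries where the circRNA was not listed. For chr18:61323689-61340634, listed in every library, the log2 difference was -0.28 (SE 0.21). The median over the 17 was -0.05, beside -0.10 over all 772.

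Listing itself gave no clear division. Of the 52 circRNAs, 11 were seen in C01–C03 alone, 19 in C04–C06 alone and 22 in both groups, or 21.2%, 36.5% and 42.3%. Over all 2228 circRNAs these shares were 24.6%, 33.9% and 41.5%. None of the 52 was listed in every library of 1 group and in no library of the other, against 48 of the 2228, or 2.15%. The number listed was 18, 18 and 21 in C01–C03 and 21, 26 and 21 in C04–C06. Over all hosts these libraries listed 874, 795, 825, 948, 986 and 946 circRNAs.

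Whether a host's mix of circRNAs differed between the groups was tested on 16 circRNAs in 6 hosts with edgeR's diffSpliceDGE. ENSRNOG00000017116 did not enter, because only its leading circRNA passed the filter. None of the 16 was called, against 2.17% of all circRNAs in that test (4 of 184). None had an unadjusted p under 0.05, against 4.89% of all (9 of 184). The relative log2 differences ran from -2.22 for chr1:247922780-247960553 to 1.89 for chr19:32450974-32497560. Taken by host, the smallest unadjusted p was 0.166, in ENSRNOG00000011697 (adjusted p = 0.974).

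The leading circRNA of ENSRNOG00000017116 had the highest circular share of the 52. Its share was 58.2%, 56.4% and 52.3% in C01–C03 and 63.6%, 64.2% and 59.6% in C04–C06. The 95% Wilson interval, computed on the read counts and converted to the circular share, ran from 41.0% to 63.4% in the lowest library, C03. In the highest, C05, it ran from 54.4% to 72.9%. These intervals cover counting error only, not the spread between rats. The group means were 55.6% ± 2.98 and 62.5% ± 2.47 (SD, n = 3), without overlap. In limma's test of the log2 ratio of back-splice to linear reads the difference was -0.40 (SE 0.21), with an unadjusted p of 0.0967 and an adjusted p of 0.334. The linear reads at its ends were 59, 48, 51, 47, 48 and 65, a log2 difference of -0.02 (SE 0.22).

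The other 5 leading circRNAs that could be tested were mostly linear at their ends. The mean circular share over 6 libraries was 34.1% ± 6.56 (SD, n = 6) for chr1:247944245-247960553, 23.6% ± 5.83 for chr1:255727112-255764689, 22.3% ± 4.21 for chr19:32470120-32472456, 21.2% ± 3.48 for chr6:28022406-28051704 and 16.8% ± 4.05 for chr2:128562842-128636642. The 4 lowest overlapped from library to library. Their highest was 33.1%, for chr1:255727112-255764689 in C06. Every library of chr18:61323689-61340634 lay above every library of these 5. For chr1:255727112-255764689 the share ranged from 17.3% in C01 to 33.1% in C06, although the reads of its host in those 2 libraries were 60 and 52.

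No leading circRNA had a called difference in circular share, against 2.2% of the circRNAs tested (6 of 273), and the groups did not overlap in 1 of the 6, against 26.7% of all tested. The log2 differences of the 6 ran from -0.40, above, to 0.27 (SE 0.29) for chr19:32470120-32472456. Unlisted entries have no linear reads in the files, so only circRNAs listed in all 6 libraries entered.

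The linear reads at the same ends differed between the groups for many circRNAs of the series, with 31.9% called (87 of 273). CircRNAs that share an end share linear reads, so their tests were not independent. None of the 6 leading circRNAs was called. The nearest was chr19:32470120-32472456, with 37, 35 and 41 linear reads in C01–C03 and 64, 57 and 42 in C04–C06. Its log2 difference was -0.52 (SE 0.23), with an adjusted p of 0.0738 in edgeR's quasi-likelihood test, and the groups were 1 read apart at their closest. The highest was 0.24 (SE 0.13), for chr1:255727112-255764689. When C02 was left out, chr1:255706980-255764689 entered this test, since C02 was the library that did not list it. Its linear reads were called as higher in C01 and C03 by edgeR's test, with a log2 difference of 0.41 (SE 0.15) and an adjusted p of 0.0335. Over the series, 84 circRNAs were called in that setting.

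**Figure D4:**
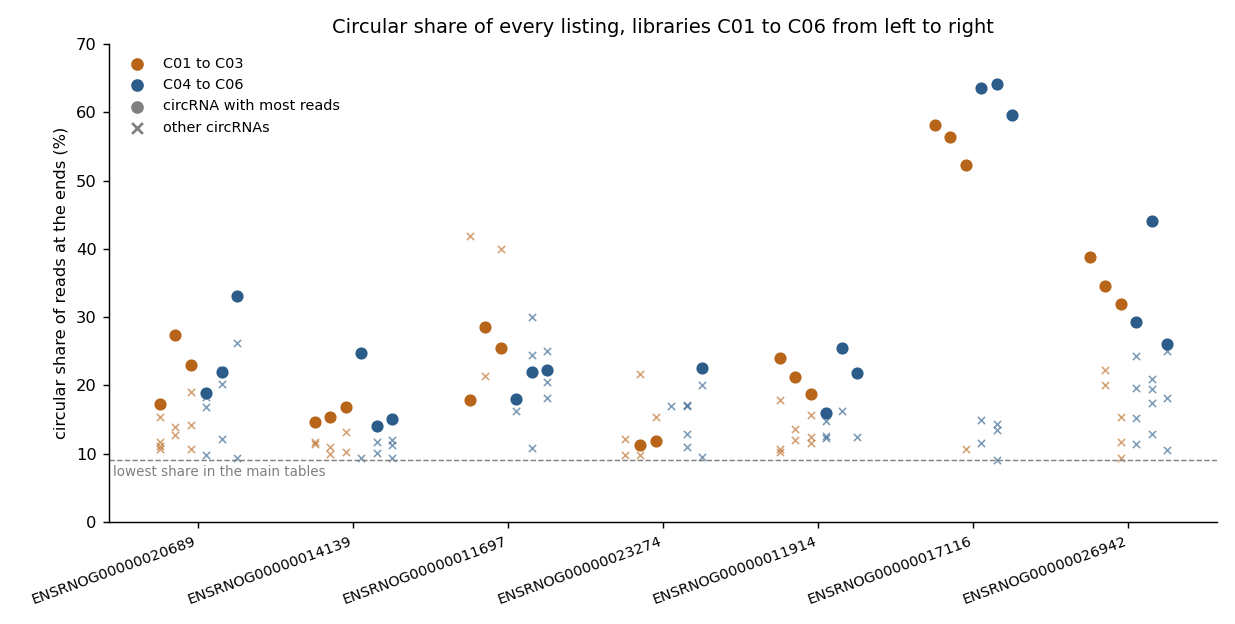
Circular share (vertical axis, percent of reads at the ends) of each listing of the 7 hosts, with libraries C01 to C06 from left to right within a host, filled circles for the circRNA with most reads and crosses for the others. The circles of ENSRNOG00000017116 lie between 52.3% and 64.2%, and 54 of the 125 listings lie between the dashed line at 9.09%, the lowest share in the main tables, and 15%.

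A second deposited list per library, from another caller, gave reads for 41 of the 52 circRNAs at exactly the same ends, or 78.8%, against 67.8% of all circRNAs. Of the 125 listings, 88 or 70.4% also had second-caller reads in the same library, against 63.2% over all. Of 187 entries not listed in the main tables, 29 or 15.5% had second-caller reads, at most 5, against 21.0% over all. Over circRNAs with a single host gene, the closer comparison, the same shares were 74.9% of circRNAs, 70.1% of listings and 24.5% of unlisted entries. Against that set the share of listings with second-caller reads was nearly the same. Of the 24 circRNAs listed in a single library, 17 had second-caller reads in some library.

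The callers disagreed on the leading circRNA of 3 hosts. For chr1:255727112-255764689, with 128 reads in the main tables, the second caller gave 0 reads in all 6 libraries. For chr1:128513529-128576607, with 19 reads, it also gave none. For chr19:32470120-32472456 it gave 9 against 39, fewer than the 14 it gave for chr19:32450974-32497560. The 9 listed circRNAs of ENSRNOG00000020689 together had 60 second-caller reads, against 314 in the main tables. That sum leaves out 5 second-caller candidates within the host's limits that were in no main table. By contrast chr18:61323689-61340634 had 29, 30, 23, 18, 42 and 32 second-caller reads, or 174 against 232, and chr1:247944245-247960553 had 107 against 112. The 11 circRNAs without any second-caller reads held 198 main-table reads, of which chr1:255727112-255764689 had 128, and 7 of the 11 were listed in 1 library. In the authors' deposited TPM values, chr1:255727112-255764689 and chr1:128513529-128576607 also had no value above 0, with an absent entry counted as 0.

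The second caller also gave 27 candidates between the outer limits of the 7 hosts that were in no main table. Of these, 26 were on the host's strand, 24 reused a listed start or end, and 6 joined a listed start to a listed end. In all, 21 of the 27 were seen in 1 library. There were 7 in ENSRNOG00000014139, 7 in ENSRNOG00000011914, 5 in ENSRNOG00000020689 and none in ENSRNOG00000026942, where every pair was already listed.

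**Figure D5:**
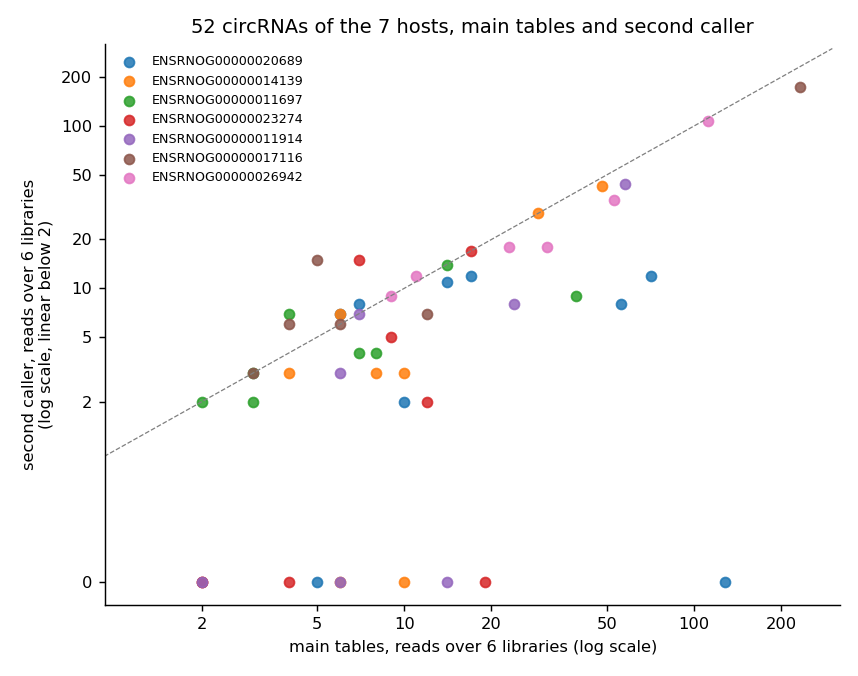
Back-splice reads of the 52 circRNAs summed over 6 libraries, in the main tables (horizontal axis, log scale) and by the second caller (vertical axis, log scale above 2 and linear below), with 1 point per circRNA coloured by host and a dashed line at equal reads. The 11 points at 0 include the one with 128 reads in the main tables, and the point with most reads is at 232 and 174.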

How the data were processed

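Total RNA libraries of 6 rat pineal glands were used, 1 per rat. Per the file headers, the main deposited tables, in the format of CIRI, give counts of back-splice and linear reads and, as a fraction, the circular share, which was recomputed from the counts with at most 0.05 percentage points of difference. The second deposited lists, in the format of find_circ, give counts of junction reads. The authors' deposited TPM values were used only as an alternative for the leading circRNA's part. DESeq and mm9, a mouse build, appear in the submitters' processing notes, while the files have rat identifiers. The build is therefore uncertain, and the aligner, versions and settings were not given in the sources used here. Positions follow the files and are 1-based, which for the second lists meant adding 1 to each start.

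Rows of the 7 identifiers were joined by circRNA position, with an unlisted entry counted as 0. All tests were fitted over every host or circRNA of the series with R 4.3.3. The quasi-likelihood test of edgeR 4.0.16, with TMM, was used for back-splice reads (hosts and circRNAs with 2 or more reads in 3 or more libraries) and for linear reads (circRNAs listed in all 6 libraries), the mix within a host with its diffSpliceDGE, and the circular share with limma-trend (limma 3.58.1) on the log2 ratio of back-splice to linear reads after adding 0.5 to both. P-values were adjusted by Benjamini-Hochberg, with a threshold of 0.05. The alternatives were other normalizations, filters and added read numbers, DESeq2 1.42.0, limma-voom, the second caller, and leaving out each rat. The second caller's counts in these alternatives were limited to circRNAs in the main tables. The tests were tried on simulated counts, where the test of the mix within a host found the smallest part of the changes put in. Members, lists and tests were chosen with earlier results of these data known. By rule, the 2 circRNAs with most reads in each host are given in every library, with any past a threshold or listed in all of 1 group and none of the other, and with the lowest and highest values of a test. Any other circRNA or end named was picked after its values were seen.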

Additional observations from a re-analysis of the deposited data

How the results depend on the processing

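None of the 7 hosts or their circRNAs was called under any alternative, except in the linear reads without replicate 2. There chr1:255706980-255764689 was called, 1 of 84 circRNAs called over the series in that setting. Of the 7 hosts, ENSRNOG00000020689, ENSRNOG00000017116 and ENSRNOG00000026942 kept their direction in all 13 alternatives. The log2 difference of ENSRNOG00000011697 turned to 0.0145 with RLE, 0.0146 with DESeq2, 0.0665 with library size only and 0.0158 for hosts listed in all 6 libraries, and lay between -0.23 and 0.12 when a replicate was left out. That of ENSRNOG00000011914 turned to 0.0596 with RLE and with DESeq2, 0.0566 for hosts listed in all 6 libraries, 0.11 with library size only, 0.0117 without a filter, 0.0106 with limma-voom and 0.0294 with the second caller, and lay between -0.12 and 0.14 when a replicate was left out. ENSRNOG00000023274 turned to -0.32 with the second caller and lay between -0.21 (without replicate 4) and 0.49 when a replicate was left out. ENSRNOG00000014139 turned to 0.14 with the second caller. The difference in the leading circRNA's part, in percentage points, turned to 7.14 in ENSRNOG00000014139, 11.7 in ENSRNOG00000011697 and -1.41 in ENSRNOG00000017116 with the second caller, and to 20.7 in ENSRNOG00000014139 with TPM. When a replicate was left out it ranged from -15.2 to 7.52 in ENSRNOG00000014139, from -11.1 to 8.52 in ENSRNOG00000011697, from -4.45 to 9.92 in ENSRNOG00000020689 and from -5.71 to 27.7 in ENSRNOG00000023274. Counts of calls over the whole series moved more. For hosts (5) they were 23 without a filter, 2 when listed in all 6 libraries, 20 with DESeq2, 26 with limma-voom, 0 with the second caller, and 1 to 5 when a rat was left out. For circRNAs (12) they were 41, 7, 27, 33 and 1 in the same order, and 0 to 14 when a rat was left out. For the mix within a host (4) they were 0 when listed in all 6 libraries, 0 with the second caller, and 0 to 7 when a rat was left out. For the circular share (6) they were 10 with 1 added, 11 with at least 10 reads in every library, and 3 to 5 when a rat was left out. For the linear reads (87) they were 99 with library size only, 68 with DESeq2, and 72 to 92 when a rat was left out. The cause of these moves was not tested. The depth limits the precision for single circRNAs, whose median listing had 7 reads. No paired analysis was possible, because each library came from a different rat and no pairs of rats were given.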
